A study of Mus musculus with 12 samples.

Results

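The 9 genes Bmp2, Bmp3, Bmp4, Bmp5, Bmp7, Grem1, Chrdl1, Id1 and Id3 are ligands, secreted antagonists and target genes of the bone morphogenetic protein (BMP) pathway. They were chosen by symbol from the 17734 genes of the expression table, with earlier results of these data known. All 9 members were present, and all 9 passed the filter on low values that left 15315 genes for testing. RNA of the colorectum, taken from the rectum, was sequenced in bulk from 12 male C57BL/6 mice aged 8 to 10 weeks, in 4 groups of 3. Normal mice drank water, and colitis mice drank 2.5% dextran sulfate sodium (DSS), which injures the colonic epithelium, for 7 days. The 2 treated groups, BBR-treated normal mice and BBR-treated colitis mice, had berberine (BBR), a plant alkaloid, by gavage at 100 mg/kg each day, for 6 days per the labels and 7 days per the study's methods. No group carried an engineered allele. Mice are named here by the replicate number of their label.

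BMPs are secreted ligands that bind pairs of type I and type II serine/threonine kinase receptors, which phosphorylate Smad1, Smad5 and Smad9, and these enter the nucleus with Smad4. In the colon, BMP ligands come from mesenchymal cells beneath the epithelium and from the surface epithelium, while antagonists such as gremlin are made by mesenchymal and muscle cells around the crypt base. BMP signalling is known for restraining stem cells and favouring differentiation toward the crypt top, and the Id genes are among its immediate targets.

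The 12 values of each gene are FPKM, a measure of RNA scaled for gene length and sequencing depth, so that levels of different genes may be compared. The 4 mice numbered 4 (1 in each group) stood apart from the 8 others. Their columns summed to 482194 to 504337 FPKM with 872 to 1086 genes at 0, against 696286 to 765876 FPKM and 1332 to 1926 genes at 0. Depth was read from the steps between low values, and 3 reads on a transcript of 2000 bases were worth between 0.0791 and 0.0896 FPKM for the mice numbered 4 and between 0.107 and 0.116 FPKM for the rest. Epcam, an epithelial surface protein, was at 780 to 1201 FPKM in all 12 mice, and squamous epithelium markers summed to 1.33 to 8.56 FPKM. In bulk tissue, fewer cells of a type and less RNA per cell cannot be told apart.

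By mean level over the 12 mice, Id1 was the most abundant member at 252 FPKM, a level exceeded by 363 genes of the table. Id3 followed at 51.5 FPKM and Bmp2 at 35.8 FPKM. Grem1 at 14.4 FPKM and Bmp3 at 11.6 FPKM were intermediate, and Bmp4 at 7.04, Bmp5 at 5.01 and Chrdl1 at 3.56 FPKM were lower. Bmp7, at 1.68 FPKM, was the least abundant of the 9. Bmp2 thus made up most of the summed level of the 4 canonical ligands, with Bmp4, Bmp5 and Bmp7 far behind it.

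Promoter windows of 4 of the 9 members were matched by symbol in the RefSeq table (GRCm38.p6, whereas the submitters' processing notes name mm9). They are shown because these 4 were the members with a window, among them Bmp4, Bmp5 and Id3, which were lower in colitis mice at the unadjusted limit, and Grem1, which was not. Each line gives the 250 bases before the transcription start, 5′ to 3′ on the gene's strand. Capitals mark GGCGCC, a GC-rich motif bound by Smad1 and Smad5, or CACGTG, an E-box. Both motifs read the same on both strands and do not overlap here.
Bmp4, chr14:46390670-46390919 (minus strand): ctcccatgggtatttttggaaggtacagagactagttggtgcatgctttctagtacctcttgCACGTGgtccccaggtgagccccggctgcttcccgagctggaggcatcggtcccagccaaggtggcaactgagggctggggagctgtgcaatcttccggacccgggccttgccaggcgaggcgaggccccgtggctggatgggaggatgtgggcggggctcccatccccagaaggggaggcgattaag
Bmp5, chr9:75775115-75775364 (plus strand): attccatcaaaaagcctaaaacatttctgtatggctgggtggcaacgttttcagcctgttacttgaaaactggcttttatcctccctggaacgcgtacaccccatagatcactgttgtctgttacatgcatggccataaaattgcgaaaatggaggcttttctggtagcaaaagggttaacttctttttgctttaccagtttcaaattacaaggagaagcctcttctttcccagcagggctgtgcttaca
Grem1, chr2:113758649-113758898 (minus strand): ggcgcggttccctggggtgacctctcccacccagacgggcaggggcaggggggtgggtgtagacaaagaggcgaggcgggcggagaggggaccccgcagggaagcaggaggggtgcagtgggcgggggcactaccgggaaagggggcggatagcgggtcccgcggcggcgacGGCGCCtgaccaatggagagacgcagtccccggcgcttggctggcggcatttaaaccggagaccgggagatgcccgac
Id3, chr4:136143572-136143821 (plus strand): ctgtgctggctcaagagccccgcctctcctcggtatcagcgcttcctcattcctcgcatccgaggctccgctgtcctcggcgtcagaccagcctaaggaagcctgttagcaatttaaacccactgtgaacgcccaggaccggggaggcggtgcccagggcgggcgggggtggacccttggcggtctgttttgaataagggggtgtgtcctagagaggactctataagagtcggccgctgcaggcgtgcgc
The Grem1 window held GGCGCC beginning 78 bases before the start, a motif found in 9.59% of the 32851 windows of the table. The Bmp4 window held CACGTG beginning 188 bases before the start, found in 6.02% of windows. Neither 6-letter sequence was in the Bmp5 or Id3 window. The Bmp5 window had 42.8% G and C, below the median of 52.4% over all windows, and those of Id3, Bmp4 and Grem1 had 62.8%, 63.2% and 72.0%.

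The comparison of colitis mice with normal mice asks what DSS did in the absence of BBR. Of the 9 members, 6 were lower in colitis mice at an unadjusted limma P of at most 0.05, and none was higher. These were the ligands Bmp2, Bmp4 and Bmp5, the antagonist Chrdl1 and the targets Id1 and Id3. Over all 15315 tested genes, 15.9% were lower and 5.56% were higher at that limit. In the same 6 members each colitis mouse lay below each normal mouse, which held for 22.2% of all tested genes. No member passed the Benjamini-Hochberg adjusted limit of 0.05 in limma, which 1.08% of all genes passed. The median difference over the members was -1.09 on the log2(FPKM + 0.1) scale, beside -0.32 over all tested genes. That all-gene median moved to 0.02 when each mouse was centred on its median. All genes at the unadjusted limit were then split into 1442 higher and 1245 lower, against 852 and 2428 without centring, and 3 members (Chrdl1, Id1 and Id3) remained lower at that limit.

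**Figure D1:**
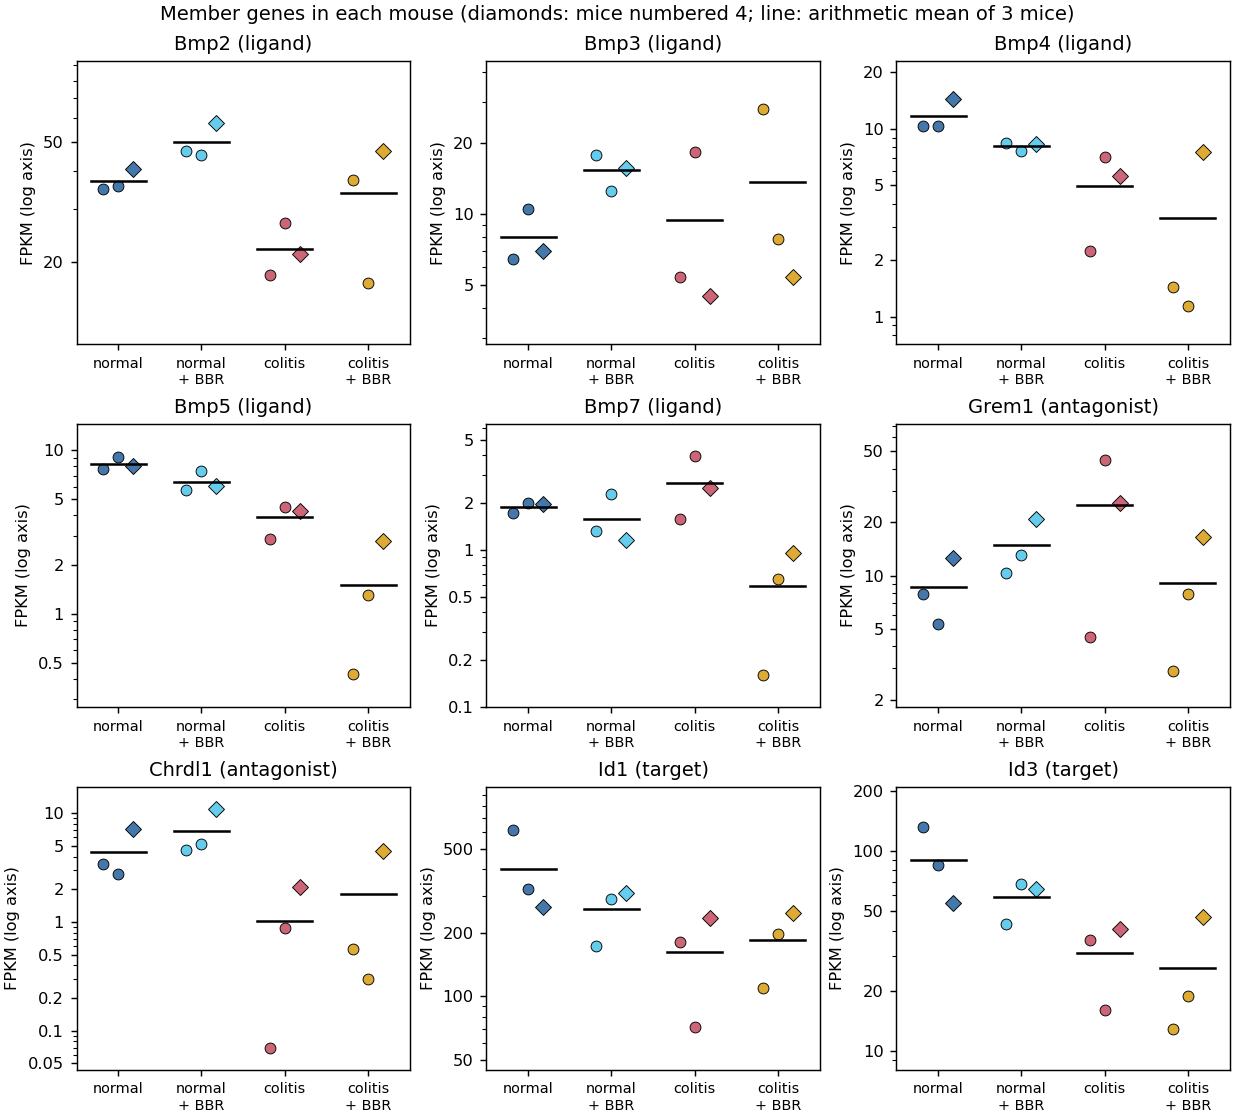
FPKM of each member in each mouse on a log axis, by group, with the arithmetic mean of 3 mice as a line and the mice numbered 4 as diamonds. All colitis mice sit below all normal mice for Bmp2, Bmp4, Bmp5, Chrdl1, Id1 and Id3, while Bmp7 and Bmp5 are lowest in BBR-treated colitis mice.

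Bmp2, a ligand of the surface epithelium and mesenchyme, stood at 35.1, 35.7 and 40.9 FPKM in normal mice 1, 3 and 4. It stood at 18.1, 27.0 and 21.4 FPKM in colitis mice 1, 2 and 4. Every colitis value was therefore below every normal value. The log2 difference was -0.76 ± 0.32 (SE; limma, Benjamini-Hochberg adjusted p = 0.197), and it was -0.68 in the mice numbered 1 to 3 and -0.93 in the mice numbered 4. Under median centring the difference was -0.43 and missed the unadjusted limit.

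Bmp4, a mesenchymal ligand, was at 10.4, 10.4 and 14.4 FPKM in normal mice and at 2.25, 7.05 and 5.63 FPKM in colitis mice 1, 2 and 4. The highest colitis value was below the lowest normal value. The log2 difference of the groups was -1.35 ± 0.60 (limma, Benjamini-Hochberg adjusted p = 0.22). It was -1.35 in mice 1 to 3 and -1.34 in the mice numbered 4. Bmp5, another mesenchymal ligand, was at 7.66, 9.07 and 7.99 FPKM in normal mice and at 2.88, 4.52 and 4.24 FPKM in colitis mice, again with no overlap. Its log2 difference was -1.09 ± 0.48 (limma, Benjamini-Hochberg adjusted p = 0.217). With each mouse centred on its median, the differences were -1.01 for Bmp4 and -0.75 for Bmp5, and both missed the unadjusted limit.

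Bmp3 and Bmp7 did not share this pattern. Bmp3, a divergent family member that antagonizes other BMPs, was at 6.49, 10.5 and 6.98 FPKM in normal mice and at 5.43, 18.4 and 4.50 FPKM in colitis mice. Colitis mouse 2 was above all normal mice and the other two were below them, and the log2 difference was -0.02 ± 0.60 (limma, Benjamini-Hochberg adjusted p = 0.985), which became 0.31 under median centring. Bmp7, a ligand closely related to Bmp5, was at 1.71, 1.99 and 1.95 FPKM in normal mice and at 1.58, 3.97 and 2.47 FPKM in colitis mice, with 2 of 3 colitis mice above the normal range (log2 difference 0.39 ± 0.51, limma, Benjamini-Hochberg adjusted p = 0.645).

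The antagonists had opposite signs. Grem1, which encodes gremlin 1, a secreted protein that binds BMP2 and BMP4, was at 7.92, 5.36 and 12.6 FPKM in normal mice. In colitis mice 1, 2 and 4 it was at 4.50, 44.7 and 25.5 FPKM. Mice 2 and 4 were thus above all normal mice and mouse 1 was below them. The log2 difference was 1.08 ± 0.78 (limma, Benjamini-Hochberg adjusted p = 0.405), and it ranged from 0.40 without colitis mouse 2 to 2.04 without colitis mouse 1, when Grem1 was higher at the unadjusted limit (limma, Benjamini-Hochberg adjusted p = 0.2). Chrdl1, which encodes chordin-like 1, was at 3.41, 2.78 and 7.18 FPKM in normal mice and at 0.07, 0.88 and 2.11 FPKM in colitis mice. The 0.07 FPKM of colitis mouse 1 was near the 0.0547 FPKM that 3 reads on its longest transcript of 4096 bases were worth in that mouse. Chrdl1 had the largest difference among the members, -2.55 ± 0.98 (limma, Benjamini-Hochberg adjusted p = 0.176), which was -1.51 without that mouse. With a term for the mice numbered 4 in the fit, the Benjamini-Hochberg adjusted p of Chrdl1 in limma was 0.0334, past the limit, as were 1412 of all genes (9.22%).

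The targets were both lower in colitis mice. Id1, an inhibitor of basic helix-loop-helix transcription factors, was at 616, 323 and 265 FPKM in normal mice 1, 3 and 4. It was at 182, 71.9 and 235 FPKM in colitis mice 1, 2 and 4. The groups did not overlap, but the gap between normal mouse 4 and colitis mouse 4 was narrow. The log2 difference was -1.37 ± 0.48 (limma, Benjamini-Hochberg adjusted p = 0.149), and it was -1.96 in mice 1 to 3 against -0.17 in the mice numbered 4. Id3, of the same family, was at 131, 84.8 and 54.8 FPKM in normal mice and at 35.9, 16.0 and 40.8 FPKM in colitis mice. It had the smallest P of the 9 members in this comparison (log2 difference -1.56 ± 0.49, limma, Benjamini-Hochberg adjusted p = 0.119). Its difference was -2.13 in mice 1 to 3, where the Benjamini-Hochberg adjusted p in limma was 0.0443 and 930 of all genes passed the limit, and -0.43 in the mice numbered 4.

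For each of the 6 members without overlap, an exact permutation test (two-sided, 3 against 3) gave p = 0.1, the smallest p it can give. When 1 of the 6 mice was left out in turn, Id3 was lower at the unadjusted limma limit in all 6 fits. Bmp2 and Bmp4 reached it in 1 of 6 fits each, both without colitis mouse 2, and Bmp5 in 0 of 6. Chrdl1 missed it without colitis mouse 1 or normal mouse 4, and Id1 without colitis mouse 2 or normal mouse 1.

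**Figure D2:**
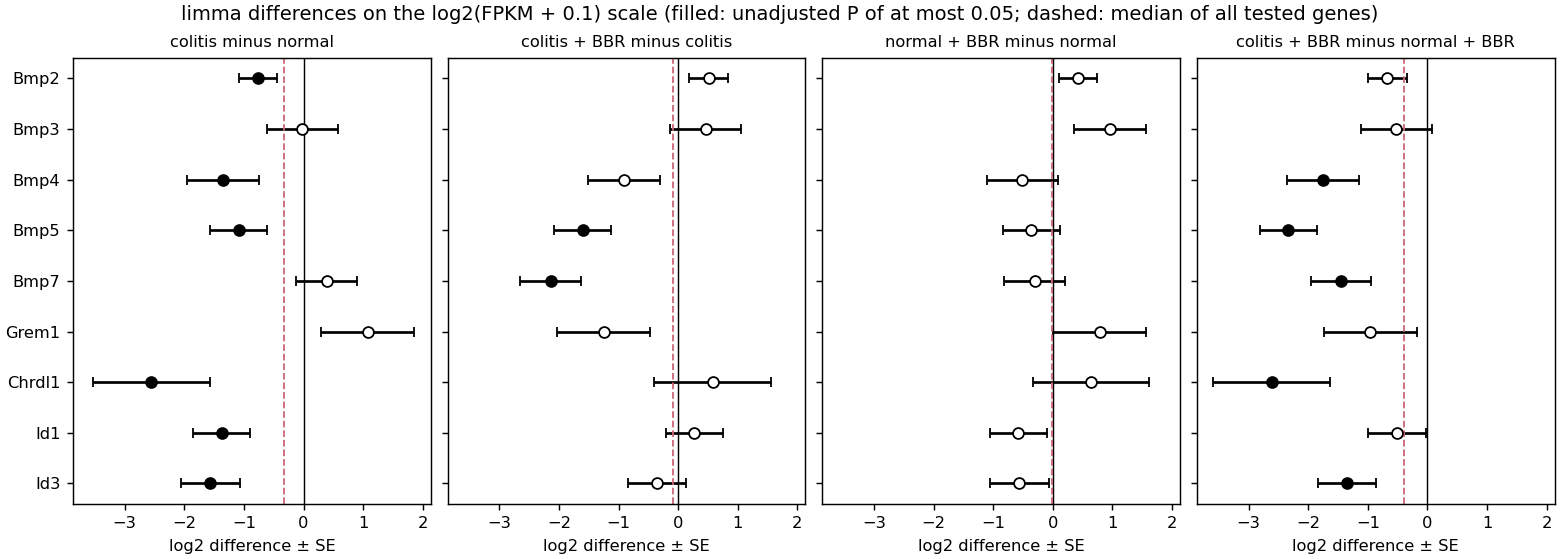
limma log2 differences with SE for each member in 4 comparisons, with filled points at an unadjusted P of at most 0.05 and the dashed line at the median of all tested genes. The points of colitis against normal lie left of 0 except those of Bmp7 and Grem1, and the colitis with BBR against colitis panel has filled points for Bmp5 and Bmp7 alone.

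The comparison of BBR-treated colitis mice with colitis mice asks what BBR did in the presence of DSS. Bmp5 and Bmp7 were lower with BBR at an unadjusted P of at most 0.05, and no member was higher at that limit. Over all tested genes, 5.20% were lower at that limit and 1.19% were higher. No gene of the 15315 passed the adjusted limit in limma (0.00%), while 796 were lower and 182 were higher at the unadjusted limit, or 535 and 458 with each mouse centred on its median. The members' median was -0.35, beside -0.09 over all genes.

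Bmp7 was at 0.16, 0.65 and 0.96 FPKM in BBR-treated colitis mice 2, 3 and 4, all below the 1.58 to 3.97 FPKM of colitis mice. The log2 difference was -2.14 ± 0.51 (limma, Benjamini-Hochberg adjusted p = 0.435), and it was -2.57 in mice 1 to 3 and -1.28 in the mice numbered 4. Bmp5 was at 0.43, 1.31 and 2.78 FPKM, with the highest of these below the lowest colitis value of 2.88 FPKM. Its log2 difference was -1.60 ± 0.48 (limma, Benjamini-Hochberg adjusted p = 0.512), and it was -2.10 in mice 1 to 3 against -0.59 in the mice numbered 4. In both genes no value overlapped between the groups, which held in that direction for 5.66% of all genes, and both had P at or below 0.05 when any 1 of the 6 mice was left out. The Bmp5 difference was -0.96 without mouse 2 of BBR-treated colitis mice and -2.18 without mouse 4 of that group.

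The other ligands were spread widely in BBR-treated colitis mice. Bmp4 was at 1.43, 1.14 and 7.54 FPKM, so that mice 2 and 3 were below the colitis range and mouse 4 was above it. Its log2 difference was -0.91 ± 0.60 (limma, Benjamini-Hochberg adjusted p = 0.964), with -1.57 in mice 1 to 3 and 0.42 in the mice numbered 4. Bmp2 was at 37.6, 17.1 and 46.9 FPKM, where mice 2 and 4 were above all colitis mice and mouse 3 was below them (log2 difference 0.51 ± 0.32, limma, Benjamini-Hochberg adjusted p = 0.947). With each mouse centred on its median, the Bmp2 difference was 0.66, past the unadjusted limit, with a limma Benjamini-Hochberg adjusted p of 0.762. Bmp3 was at 27.9, 7.84 and 5.40 FPKM, and its groups overlapped.

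Grem1 was at 2.91, 7.86 and 16.4 FPKM in BBR-treated colitis mice, none of them as high as colitis mice 2 and 4 but all within or below the colitis range (log2 difference -1.25 ± 0.78, limma, Benjamini-Hochberg adjusted p = 0.948). The Grem1 difference was -0.56 without colitis mouse 2 and -2.21 without colitis mouse 1. Chrdl1 was at 0.56, 0.30 and 4.55 FPKM, within the colitis range except mouse 4 (log2 difference 0.58 ± 0.98, limma, Benjamini-Hochberg adjusted p = 1). Id1 at 109, 198 and 249 FPKM and Id3 at 12.9, 18.7 and 46.6 FPKM overlapped the colitis values. Their log2 differences, 0.27 ± 0.48 for Id1 and -0.35 ± 0.49 for Id3, both had a limma Benjamini-Hochberg adjusted p of 1.

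The comparison of BBR-treated normal mice with normal mice asks about BBR alone. No member had an unadjusted P of at most 0.05 in the limma fit over all 12 mice, a limit that 208 of all tested genes reached (1.36%). No gene passed the adjusted limit (0.00%). In 4 members the groups did not overlap, and over all genes 4.17% were higher and 5.46% were lower without overlap. Bmp2 was at 46.7, 45.4 and 58.0 FPKM, all above the normal mice (log2 difference 0.42 ± 0.32, limma, Benjamini-Hochberg adjusted p = 1), and Bmp3 was at 17.9, 12.5 and 15.7 FPKM, again all above (0.96 ± 0.60, adjusted p = 1). In the fit with the replicate number as a block, the Bmp3 difference of 0.96 passed the unadjusted limit, with a limma Benjamini-Hochberg adjusted p of 1. Bmp4 was at 8.42, 7.61 and 8.33 FPKM and Bmp5 at 5.70, 7.47 and 6.07 FPKM, all below the normal mice, with log2 differences of -0.51 ± 0.60 and -0.36 ± 0.48. The ligands thus lay on both sides of the normal range in the same animals.

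The other 5 members overlapped between these groups. Bmp7 was at 1.32, 2.26 and 1.15 FPKM, Grem1 at 10.4, 13.1 and 21.0 FPKM and Chrdl1 at 4.60, 5.19 and 11.04 FPKM. Id1 was at 174, 290 and 310 FPKM and Id3 at 43.0, 68.3 and 64.5 FPKM. In the mice numbered 1 to 3, Id1 differed by -0.99 and Id3 by -0.96, whereas both differed by 0.23 in the mice numbered 4.

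BBR-treated colitis mice were also compared with BBR-treated normal mice, which gives the DSS difference in mice that all had BBR. All 9 members had negative log2 differences, as did 80.1% of all genes, with a median of -1.35 beside -0.40 over all genes, and under median centring and quantile normalization all 9 stayed negative, where 44.6% and 52.7% of all genes were. All listed markers of crypt fibroblasts, smooth muscle and endothelium also had negative differences in this comparison, and their values are given with the other markers. Of the 9, 5 were lower at an unadjusted P of at most 0.05, where 17.3% of all genes were, and none passed the adjusted limit, which 0.0392% of genes passed. Over all genes 2647 were lower and 363 were higher at the unadjusted limit, or 622 and 1084 with median centring. Bmp5 had the smallest P, with every value below the lowest of BBR-treated normal mice (log2 difference -2.33 ± 0.48, limma, Benjamini-Hochberg adjusted p = 0.15). Chrdl1 had the largest difference, -2.61 ± 0.98 (limma, Benjamini-Hochberg adjusted p = 0.222). Bmp4 (-1.75 ± 0.60, limma, Benjamini-Hochberg adjusted p = 0.215) and Bmp7 (-1.45 ± 0.51, adjusted p = 0.218) also did not overlap. Their differences were -2.56 and -2.05 in mice 1 to 3 but -0.14 and -0.24 in the mice numbered 4, while those of Bmp5 were -2.94 and -1.10 and those of Chrdl1 -3.28 and -1.26. Non-overlap in that direction held for 18.0% of all genes. Under quantile normalization the Bmp7 difference was -0.90 and missed the unadjusted limit, which left 4 members. Id3 had a log2 difference of -1.35 ± 0.49 (limma, Benjamini-Hochberg adjusted p = 0.22) with overlapping values. With the term for the mice numbered 4, Bmp5 had a Benjamini-Hochberg adjusted p of 0.0441 in limma, and 268 of all genes (1.75%) passed. Without mouse 4 of BBR-treated colitis mice, 5 members (Bmp4, Bmp5, Bmp7, Chrdl1 and Id3) passed the adjusted limit, as did 2256 of all genes. Without mouse 2 of that group Bmp4, Bmp7, Chrdl1 and Id3 missed even the unadjusted limit, and without mouse 3 Bmp4, Chrdl1 and Id3 did. Bmp7 and Id3 missed it without mouse 3 of BBR-treated normal mice, and Chrdl1 without mouse 4 of that group.

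These comparisons share mice with the earlier ones, so the difference of the BBR differences was tested by itself. The interaction of BBR and DSS reached the unadjusted limit for Bmp7 alone among the members, and 1.72% of all genes had a negative interaction at that limit. No gene passed the adjusted limit (0.00%), with 107 positive and 264 negative interactions at the unadjusted limit, or 223 and 134 with median centring. For Bmp7 it was -1.84 ± 0.72 on the log2 scale (limma, Benjamini-Hochberg adjusted p = 1). It reached the limit in 8 of 12 fits with 1 mouse left out, and missed it without mouse 2 of BBR-treated colitis mice (-1.25), colitis mouse 2 (-1.52), mouse 3 of BBR-treated normal mice (-1.57) or normal mouse 1 (-1.78). The log2 difference of Bmp7 between mice with and without BBR was -2.14 with DSS and -0.30 in its absence. Grem1 had an interaction of -2.04 ± 1.10 (limma, Benjamini-Hochberg adjusted p = 1) and Bmp5 one of -1.24 ± 0.68 (adjusted p = 1). The Grem1 interaction was -1.36 without colitis mouse 2 and -3.00 without colitis mouse 1. For Id1 the interaction was 0.85 ± 0.68 (limma, Benjamini-Hochberg adjusted p = 1), and for the remaining members it lay between -0.50 and 0.21 and missed the unadjusted limit.

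Since FPKM is scaled for length, members were also set against each other within each mouse. These quantities were chosen after the values had been seen and are given as a description. The Grem1 to Bmp4 ratio was 0.764, 0.516 and 0.878 in normal mice 1, 3 and 4 and 1.23, 1.72 and 2.52 in BBR-treated normal mice. It was 2, 6.34 and 4.53 in colitis mice and 2.03, 6.89 and 2.18 in BBR-treated colitis mice. Gremlin transcript was therefore below Bmp4 transcript in all 3 normal mice and above it in the other 9. Bmp2 made up 62.5% to 64.0% of the summed FPKM of Bmp2, Bmp4, Bmp5 and Bmp7 in normal mice, 72.3% to 78.9% in BBR-treated normal mice, 63.4% to 73.0% in colitis mice and 80.6% to 94.9% in BBR-treated colitis mice. The sum itself was 54.8 to 65.2, 62.2 to 73.6, 24.8 to 42.5 and 20.2 to 58.1 FPKM in the same order. The Id1 to Id3 ratio was 3.81 to 5.77 in the other 3 groups and 8.48, 10.6 and 5.34 in BBR-treated colitis mice 2, 3 and 4.

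**Figure D3:**
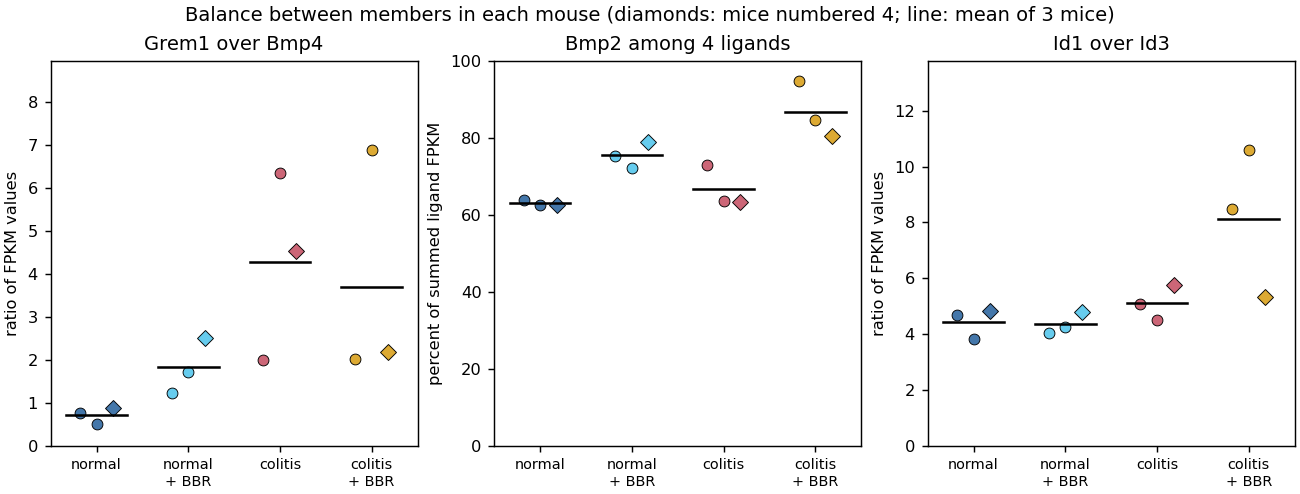
Per mouse, the Grem1 to Bmp4 ratio, the percent of Bmp2 in the summed FPKM of 4 ligands and the Id1 to Id3 ratio, by group, with means of 3 mice as lines and the mice numbered 4 as diamonds. The Grem1 to Bmp4 ratio is 0.516 to 0.878 in normal mice and 2 or more in both colitis groups.

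The order of the groups differed between members. For Bmp5 no neighbouring groups overlapped in the order normal, normal receiving BBR, colitis and colitis receiving BBR, with means of 8.24, 6.41, 3.88 and 1.51 FPKM. Bmp4 followed the same order with means of 11.7, 8.12, 4.98 and 3.37 FPKM, and only the last pair overlapped. Bmp2 was highest in BBR-treated normal mice, separated from normal mice, and its lower groups overlapped in turn. For Bmp3, Grem1, Chrdl1 and Id1 every pair of neighbouring groups overlapped, and for Bmp7 and Id3 1 pair each was separated.

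Further genes of the pathway were taken from 6 lists of 63 genes, of which 57 were in the table and 49 were tested. All lists, like the members, were chosen with earlier results of these data known, so their counts are a description. In colitis mice against normal mice, 17 of the 49 were lower and 4 were higher at an unadjusted limma P of at most 0.05, and none passed the adjusted limit. Over all tested genes the shares at that limit were 15.9% lower and 5.56% higher. The median difference of the 49 was -0.67 beside -0.32 over all genes. With each mouse centred on its median it was -0.33 beside 0.02, and 15 of the 49 were lower and 4 higher, where 8.13% and 9.42% of all genes were. Chrd and Smad4 then passed the adjusted limit, as did 1.21% of all genes, and Chrd alone of the 49 did under quantile normalization. With the term for the mice numbered 4, 11 of the 49 passed it, among them Bmp6, Gdf10, Chrd and Id4, as did 1412 of all tested genes (9.22%). In BBR-treated colitis mice against BBR-treated normal mice, 20 of the 49 were lower and 1 was higher at the unadjusted limit (8 and 4 with median centring), beside 17.3% lower and 2.37% higher over all genes (4.06% and 7.08%), and for BBR in normal mice none reached it. Of the 21 calls in colitis, 7 (Bmp6, Gdf10, Nog, Chrd, Crim1, Tob1 and Atoh8) were made in all 6 fits with 1 mouse left out.

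Among 7 other ligands tested, Bmp6 was at 2.66, 2.04 and 3.60 FPKM in normal mice and at 0.45, 1.23 and 0.95 FPKM in colitis mice (log2 difference -1.61 ± 0.40, limma, Benjamini-Hochberg adjusted p = 0.0713). Gdf10, also called BMP3B, was lower as well (-2.71 ± 0.65, limma, Benjamini-Hochberg adjusted p = 0.0652). Bmp8b was higher, at 9.86, 66.8 and 4.05 FPKM in colitis mice against 1.31 to 1.80 FPKM in normal mice (3.15 ± 1.14, limma, Benjamini-Hochberg adjusted p = 0.157). Its close paralog Bmp8a was at 1.74 to 3.44 FPKM in colitis mice, and how reads shared by the pair were divided is uncertain.

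In colitis mice, 73.7% of all tested genes had negative differences. At the unadjusted limit 15.9% of all genes were lower and 5.56% higher (8.13% and 9.42% with median centring). Of 17 other extracellular antagonists and modulators, 14 had negative differences, and 5 were lower and 2 higher at the unadjusted limit (4 and 2 with median centring, without Twsg1). The lower ones included Nog, which encodes noggin (-1.83 ± 0.61, limma, Benjamini-Hochberg adjusted p = 0.133), and Crim1, a membrane protein that binds BMPs (-1.32 ± 0.32, adjusted p = 0.0674). Chrd, which encodes chordin, was at 1.2, 1.47 and 1.80 FPKM in normal mice and at 2.66, 4.89 and 4.65 FPKM in colitis mice (1.36 ± 0.33, limma, Benjamini-Hochberg adjusted p = 0.0674). Chrdl2 was higher too (2.03 ± 0.70, limma, Benjamini-Hochberg adjusted p = 0.143), so that the chordin family, with Chrdl1, held differences of both signs. Chrdl2 overlapped, at 0.81, 0.9 and 2.24 FPKM in normal mice and 1.31, 11.1 and 9.03 FPKM in colitis mice. It missed the unadjusted limit without colitis mouse 2 or colitis mouse 4. In BBR-treated colitis mice against colitis mice, Chrd was lower (-0.83 ± 0.33, limma, Benjamini-Hochberg adjusted p = 0.691) and Crim1 was higher (0.88 ± 0.32, adjusted p = 0.632), and these were the 2 of 49 genes at the unadjusted limit, which 5.20% of all genes reached as lower and 1.19% as higher. The count was 5 of 49 with median centring, with quantile normalization and with the term for the mice numbered 4, and Gdf10 was among them each time. Of all genes, 2.99% were higher and 3.49% lower at the limit with centring. These shares were 3.17% and 4.11% with quantile normalization and 2.09% and 7.8% with the term. With 1 mouse left out, Chrd reached the limit in 2 of 6 fits and Crim1 in 3 of 6.

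All 9 tested receptors and co-receptors had negative differences in colitis mice (7 with median centring and 8 with quantile normalization), as did 73.7% of all tested genes (48.7% and 54.4%), and 3 passed the unadjusted limit. These were the type I receptors Acvr1, which missed that limit under both scalings (-0.61 ± 0.26, limma, Benjamini-Hochberg adjusted p = 0.203) and Acvrl1 (-0.98 ± 0.36, adjusted p = 0.157) and the co-receptor Rgmb (-1.42 ± 0.56, adjusted p = 0.182). Acvrl1 acts chiefly in endothelium, whose 8 markers summed to 26.5 to 30.5 FPKM in normal mice and 7.85 to 20.7 FPKM in colitis mice. At the same limit, of the 4 Smads Smad5 (-0.78 ± 0.33, limma, Benjamini-Hochberg adjusted p = 0.205) and Smad9 (-1.47 ± 0.51, adjusted p = 0.143) were lower, while Smad4, the partner shared with TGF-beta signalling, was higher (0.57 ± 0.25, adjusted p = 0.213).

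Inhibitors in the receiving cell or its membrane, of which Smad6 and Bambi are known to be induced by BMP signalling, and further targets were also listed. Of 8 such inhibitors, Smad6 (-2.03 ± 0.89, limma, Benjamini-Hochberg adjusted p = 0.216), Bambi (-1.01 ± 0.32, adjusted p = 0.124) and Tob1 (-1.19 ± 0.39, adjusted p = 0.133) were lower at the unadjusted limit and none was higher at it. Skil was at 22.3 to 26.3 FPKM in colitis mice, above the 17.0 to 18.2 FPKM of normal mice, with a difference of 0.43 that missed the limit. The other 7 had negative differences, and 5 of the 8 did with median centring and 6 with quantile normalization, under which Bambi missed the limit. These counts stand beside the same shares of negative differences over all genes, 73.7%, 48.7% and 54.4%. Smad6 was at 8.91, 6.59 and 8.54 FPKM in normal mice and at 2.33, 0.59 and 4.50 FPKM in colitis mice. Of 4 other targets tested, Id4 (-2.45 ± 0.85, limma, Benjamini-Hochberg adjusted p = 0.144) and Atoh8 (-1.43 ± 0.47, adjusted p = 0.131) were lower at that limit. Id4 was at 5.72 to 13.1 FPKM in normal mice and at 0.56, 1.37 and 3.17 FPKM in colitis mice.

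Hedgehog ligands from the epithelium are known to act on the mesenchyme that makes BMPs, so 14 Hedgehog pathway genes were listed beside them. Of 11 tested, 9 were lower in colitis mice at the unadjusted limit and none was higher, with a median difference of -1.80, beside 15.9% lower and a median of -0.32 over all genes. With each mouse centred on its median all 11 had negative differences, as 48.7% of all genes did, and 7 reached the limit, where 8.13% of all genes were lower, while Foxl1 missed it. With 1 mouse left out, 4 of the 9 (Ihh, Ptch1, Gli1 and Hhip) reached the limit in all 6 fits. Ihh, the main colonic ligand, was at 63.8, 43.9 and 61.1 FPKM in normal mice and at 13.2, 7.38 and 26.5 FPKM in colitis mice (-2.01 ± 0.58, limma, Benjamini-Hochberg adjusted p = 0.102). Gli1, a direct target, was at 1.39 to 2.51 FPKM in normal mice and was listed at 0, 0.02 and 0.45 FPKM in colitis mice. In colitis mice 1 and 2, 3 reads on a transcript of 2000 bases were worth 0.112 and 0.107 FPKM, above these Gli1 values. Foxl1, a factor of the mesenchymal cells next to the epithelium, was also lower (-1.39 ± 0.59, limma, Benjamini-Hochberg adjusted p = 0.206). None of the 11 reached the unadjusted limit when BBR-treated colitis mice were set against colitis mice.

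**Figure D4:**
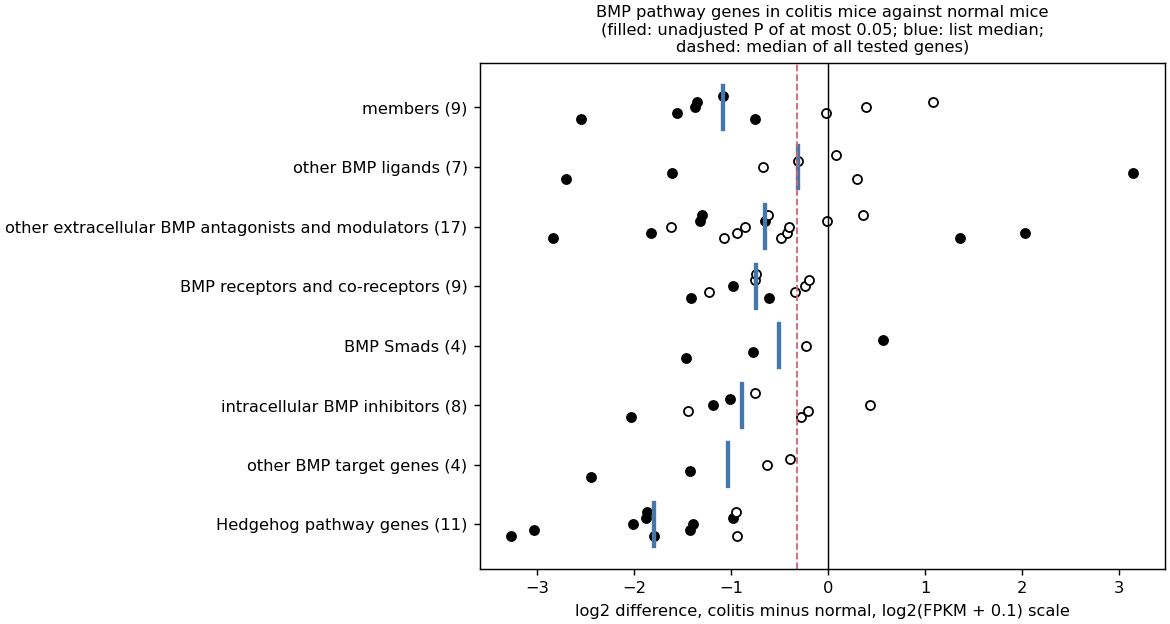
log2 differences of colitis against normal for the members and 7 lists of pathway genes, each point a gene, filled at an unadjusted limma P of at most 0.05, with list medians in blue and the median of all tested genes dashed at -0.32. The Hedgehog list has the lowest median at -1.80, and the other BMP ligands lie on both sides with Bmp8b at 3.15.

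Markers of several tissue compartments differed between the same groups as the members. The 12 smooth muscle markers summed to 2107, 1748 and 3372 FPKM in normal mice 1, 3 and 4 and to 107, 721 and 770 FPKM in colitis mice 1, 2 and 4, with 9 of 12 lower at the unadjusted limit and a median of -2.91. In BBR-treated colitis mice 2, 3 and 4 the sum was 532, 519 and 3722 FPKM, against 2450 to 5325 FPKM in BBR-treated normal mice, with 12 of 12 markers lower and 5 of them at the unadjusted limit. Chrdl1 was highest within each group in the mouse numbered 4, which also had the highest smooth muscle sum, and lowest of all 12 mice in colitis mouse 1, where that sum was lowest. The part of smooth muscle RNA in the Chrdl1 difference was not tested.

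The 11 crypt fibroblast markers summed to 369 to 579 FPKM in normal mice, 239 to 907 in colitis mice and 257 to 336 in BBR-treated colitis mice, with 2 of 11 lower in colitis at the unadjusted limit. In BBR-treated normal mice they summed to 422 to 764 FPKM, and against these mice 11 of 11 were lower in BBR-treated colitis mice, 6 of them at the limit, with a median of -1.29. Endothelium markers summed to 25.3 to 29.4 FPKM in BBR-treated normal mice and 7.48 to 18.4 FPKM in BBR-treated colitis mice, with 8 of 8 lower and 5 at the limit. Pdgfra, which marks the mesenchymal cells that make BMP ligands, was at 6.1, 6.91 and 8.65 FPKM in normal mice, at 2.13, 7.15 and 5.85 FPKM in colitis mice and at 1.45, 1.69 and 3.16 FPKM in BBR-treated colitis mice. Against colitis mice, BBR-treated colitis mice had negative differences in 9 of 11 crypt fibroblast markers and positive ones in 2, with a median of -0.59. Pdgfra alone of these was at the unadjusted limit. Of 12 smooth muscle markers, 11 had positive differences there, 0 of them at the limit. The 12 epithelium markers summed to 12345 to 17590 FPKM in colitis mice and 12375 to 17464 FPKM in normal mice, ranges that overlapped. Crypt stem cell markers summed to 23.6 to 37.0 FPKM in normal mice and 4.89, 6.06 and 20.4 FPKM in colitis mice, and 6 of 6 tested were lower at the unadjusted limit. Rgmb, also counted above as a BMP co-receptor, was the largest part of this sum. It was at 10.9 to 19.7 FPKM in normal mice and 3.72 to 11.4 FPKM in colitis mice. Lgr5 was at 0.87 to 1.41 FPKM and 0 to 0.25 FPKM. Macrophage markers summed to between 193 and 254 FPKM in normal mice, between 303 and 922 in colitis mice and between 159 and 313 in BBR-treated colitis mice. Between the last 2 groups 8 of 8 were lower with BBR, 5 of them at the unadjusted limit, where 5.20% of all genes were lower. The 3 markers of interstitial cells of Cajal summed to 77.6 to 99.3 FPKM in normal mice and 11.7 to 39.6 FPKM in colitis mice. The 6 genes of distal position summed to between 445 and 494 FPKM in normal mice, between 98.7 and 351 in colitis mice and between 135 and 480 in BBR-treated colitis mice. Granulocyte markers summed to 264 to 710 FPKM in normal mice and 606 to 4192 FPKM in colitis mice. Ly6g made up most of this sum in every mouse. Of the 8 granulocyte markers, 8 had positive differences in colitis, 7 of them at the unadjusted limit, where 5.56% of all genes were higher. S100a8 was listed at 0 FPKM for each normal mouse, against 336, 290 and 24.9 FPKM for colitis mice 1, 2 and 4. T and B cell markers had differences of both signs in colitis mice, 4 of 8 positive and 4 negative. Jchain, an immunoglobulin-joining protein of plasma cells, was at 173 to 235 FPKM in normal mice and 32.4 to 89.5 FPKM in colitis mice and made up most of their sum, while Cd8a was higher at the unadjusted limit. Goblet cell markers summed to 15031 to 34467 FPKM in normal mice and 9937 to 74595 FPKM in colitis mice. Those of surface colonocytes and of enteric neurons and glia overlapped between these groups as well. The part of each compartment, or of the position sampled, in the members' differences was not tested.

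**Figure D5:**
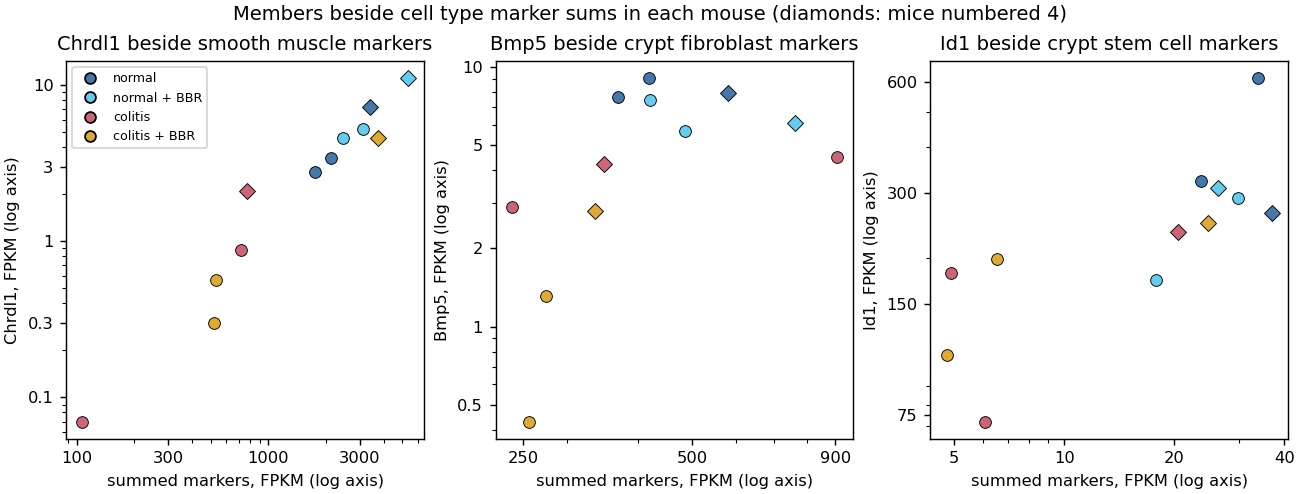
Chrdl1 beside summed smooth muscle markers, Bmp5 beside summed crypt fibroblast markers and Id1 beside summed crypt stem cell markers in each of 12 mice, all in FPKM on log axes, coloured by group with the mice numbered 4 as diamonds. Colitis mouse 1 has the lowest Chrdl1 (0.07 FPKM) and the lowest smooth muscle sum (107 FPKM). Rgmb, also a listed BMP co-receptor, is the largest part of each crypt stem cell sum.

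The genes with the most similar profiles were found among 11943 genes with a mean of at least 1 FPKM, by the root mean square difference of log2 values over the 12 mice after each gene was centred on its own mean. For Chrdl1, which itself varied by 1.76, they were Stum and Flna, both at 0.24. Bmp4 was nearest to Bgn (0.26) and Tcf21 (0.28), and Bmp5 to Adamdec1 (0.29) and Cxcl14 (0.39). For Bmp2 they were Rhou and Lpar1, both at 0.20. The nearest genes were farther off for Bmp7 (Il1r1 and C1qtnf5, both 0.41) and for Grem1 (Kcne4 at 0.50 and Phyhd1 at 0.52). Bmp3 was nearest to Slc43a3 (0.34) and Selenop (0.40), Id1 to Rita1 (0.31) and Dcaf4 (0.36) and Id3 to Nudt6 (0.31) and Aqp11 (0.36). These values describe likeness over 12 shared libraries only.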

How the data were processed

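The members and all lists were chosen with earlier results of these data known. RNA was depleted of rRNA and sequenced in single-end 50-base reads on BGISEQ-500 per the study's methods, whereas the labels name an Illumina TruSeq kit. The authors filtered reads with SOAPnuke, aligned them with Bowtie2 2.2.5 and estimated expression with RSEM 1.2.12, and the deposited values are read here as FPKM (a unit inferred here, which TPM would match as well). The submitters' processing notes name mm9. The 17734 genes have 24 at 0 in every mouse, and no read counts were used here.

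The genes averaging 0.1 FPKM or more were fitted as log2(FPKM + 0.1) in limma 3.58.1 (R 4.3.3), with 1 mean per group over all 12 mice and an empirical Bayes trend. This scale understates the change of low genes. Benjamini-Hochberg adjustment ran across every tested gene (limit 0.05), and the study's unadjusted limit of 0.05 was used beside it. Single values were tested with an exact permutation test (two-sided, 3 against 3), which cannot go below 0.1. The fit was tested on simulated data. Named genes are the members, the pathway genes at the unadjusted limit, Bmp8a as the paralog of one of these, Skil (chosen after its values were seen), markers, and the 2 nearest profiles per member. Examples within lists were chosen after their values were seen, and some list genes are not reported here by name.

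Groups and replicate numbers come from the labels. Deviations from group means were correlated between BBR-treated normal mice and normal mice. Samples with the same number had r = 0.11, 0.29 and 0.66, the last for the mice numbered 4. As 2 pairs with different numbers had r = 0.37 and 0.46, the numbers were not shown to pair these samples. The fit with 1 mean per group used no pairing, and the replicate block was run as an alternative. Alternatives were pseudocounts of 1 and 0.01, a filter at 1 or none, median centring, quantile normalization, no trend, the compared groups alone, the replicate block, a term for the mice numbered 4, mice 1 to 3 alone and leaving out each mouse. Depth was estimated from steps of low values of single-transcript genes with GENCODE M21 lengths, and these limits cover counting error only. Tables were made with pandas 2.3.3, NumPy 2.4.6 and SciPy 1.17.1 in Python 3.11.15, and figures with matplotlib 3.10.9.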

Additional observations from a re-analysis of the deposited data

Results flagged for a closer look

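The difference of the BBR differences (colitis mice minus normal mice) reached the unadjusted limma limit of 0.05 for 3 genes of the pathway, as did 1.72% of all genes in the negative direction. For Bmp7 it was -1.84 ± 0.72 on the log2 scale, for Chrd -1.08 ± 0.47 and for Hey1, a transcriptional repressor, -1.54 ± 0.67, each with a limma Benjamini-Hochberg adjusted p of 1. Chrd was at 1.90, 2.09 and 2.55 FPKM in BBR-treated colitis mice, below the 2.66 to 4.89 FPKM of colitis mice, while in normal mice it was at 1.42 to 2.51 FPKM with BBR and 1.2 to 1.80 FPKM without. Hey1 was at 0.04, 0.10 and 0.37 FPKM in colitis mice with BBR, overlapping the 0.20 to 0.46 FPKM of colitis mice. In normal mice it was at 0.79 to 1.11 FPKM with BBR and 0.37 to 0.79 FPKM without. Its values in mice 2 and 3 of BBR-treated colitis mice were below 0.114 FPKM, the worth there of 3 reads on a transcript of 2000 bases. With 1 of the 12 mice left out, the limit was reached in 8 of 12 fits for Bmp7, 5 of 12 for Chrd and 4 of 12 for Hey1. Groups of 3 mice were not tested for outlying samples.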

How the results depend on the processing

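Of 810 recomputed member differences, 768 kept their direction and their side of the adjusted limit, 12 newly passed the limit and 30 changed sign. With each mouse centred on its median, and with quantile normalization, 3 rather than 6 members were lower in colitis mice at the unadjusted limit. This count was 2 to 4 when 1 mouse was left out (2 without colitis mouse 1, normal mouse 1 or normal mouse 4, 3 without colitis mouse 4 or normal mouse 3). For colitis with BBR against colitis it was 2 to 4 (4 without colitis mouse 1 or without mouse 4 of BBR-treated colitis mice, each adding Bmp4 and Grem1), for colitis with BBR against normal with BBR 2 to 6, and for the interaction 0 to 4, or 2 in mice 1 to 3. For BBR in normal mice it was 1 (Bmp4) in the fit of the compared groups alone, where Bmp2 (0.42) and Bmp3 (0.96) were higher at that limit. Members past the adjusted limit in colitis numbered 1 in mice 1 to 3 (Id3) and 1 with the term for the mice numbered 4 (Chrdl1). For colitis with BBR against normal with BBR they numbered 4 and 1, and 0 to 5 when 1 mouse was left out, the 5 without mouse 4 of BBR-treated colitis mice. In colitis, Bmp4 missed the unadjusted limit without the trend and Bmp5 with a pseudocount of 0.01. With the replicate block in colitis, Bmp5 (-0.81) missed it and Bmp3 (-0.63) reached it, so that 6 members were again lower but not the same ones. For colitis with BBR against normal with BBR the block left out Id3 (-0.93) and added Bmp2 (-0.87) and Bmp3 (-1.16), and for BBR in colitis it added Bmp2 (0.58). These comparisons share only 2 replicate numbers each. The block gave 2 members with a lower interaction (Bmp7 and Grem1), no member past the adjusted limit in any comparison and 734 genes past it in colitis. The cause of each change was not tested.

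Over all genes the count past the adjusted limit in colitis, 165, was 71 with the filter at 1, 91 with a pseudocount of 0.01, 258 with quantile normalization, 488 in the compared groups alone, 930 in mice 1 to 3, 1412 with the term for the mice numbered 4 and 11 to 211 when 1 mouse was left out. For colitis with BBR against normal with BBR, 6 became 0 in the compared groups alone, 3 with median centring, 12 without the trend, 268 with that term, 2380 in mice 1 to 3 and 0 to 2256 when 1 mouse was left out. For BBR in colitis the count stayed at 0 to 4 except 59 without mouse 3 of BBR-treated colitis mice, and for BBR in normal mice it was at most 1.

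The Bmp3 difference in colitis changed sign to 0.31 with median centring, 0.28 with quantile normalization and 0.27 in mice 1 to 3, and ranged from -0.65 to 0.35 when 1 mouse was left out. The Chrdl1 interaction of -0.06 became 0.06, 0.07 and, with a pseudocount of 0.01, 0.16, and ranged from -1.12 to 0.75. The Bmp2 interaction became -0.18 in mice 1 to 3. When 1 mouse was left out, the interaction ranged from -0.21 to 0.52 for Bmp2, -1.19 to 0.13 for Bmp3, -1.23 to 0.08 for Bmp4 and -0.31 to 0.61 for Id3. For BBR in colitis the ranges with a change of sign were -0.23 to 1.08 for Bmp3, -0.48 to 1.39 for Chrdl1, -0.24 to 0.62 for Id1 and -0.88 to 0.05 for Id3. Depth limits low values such as that of Chrdl1 in colitis mouse 1, and 3 mice per group limit every test.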
